A study of Mus musculus with 12 samples.

Results

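The activity-induced immediate early genes are 10 of the 29608 genes named on the arrays: *Fos*, *Fosb*, *Junb*, *Egr1*, *Egr2*, *Npas4*, *Nr4a1*, *Arc*, *Dusp1* and *Ier2*. They were chosen by symbol, as every non-control probe whose gene name equalled one of them, by a rule that uses no measured value. RNA labelled as hippocampus was profiled from 3 groups of 4 mice, MRL/lpr, Fn14ko and MRL/+ (MRL/MpJ in the labels), all female, in diestrus and about 12 weeks old. MRL/lpr mice carry a loss-of-function mutation of *Fas* and develop a lupus-like disease. Fn14ko mice carry in addition a germline knockout of *Tnfrsf12a*, the gene of the TWEAK receptor Fn14, and were backcrossed littermates of the MRL/lpr mice. MRL/+ mice are the non-lupus background strain and came from another supplier. Every array held 2 mice of one phenotype, in Cy3 (mice 1 and 3) and Cy5 (mice 2 and 4), and the pair of arrays of each phenotype shared a slide, so slide and phenotype cannot be told apart.

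Immediate early genes are transcribed within minutes of synaptic activity or growth factor signalling, without new protein synthesis. Calcium entering through NMDA receptors and voltage-gated channels activates kinases that phosphorylate CREB and the SRF partners, which wait on these promoters at the cAMP response element (CRE) and the CArG box. Some products are transcription factors that switch on a later wave of genes, and others act at the synapse or feed back on the kinases. In the hippocampus and cortex these mRNAs follow recent neuronal firing and are also raised by handling and stress. No stimulus before death is described for these mice.

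One MRL/lpr array was weak. The share of spots well above background was 19.6% and 25.2% in its mice (3 and 4), against 29.6% to 68.1% in the other 10 samples, so the tests of the 10 genes and of the named related genes were repeated without it. MRL/lpr was then left with mice 1 and 2, which share 1 array. Small p-values of these repeats therefore hold no spread between arrays for MRL/lpr. In the Cy5 channels of MRL/+ (mice 2 and 4) the negative control spots read 208 and 211, against 33.2 to 90.6 elsewhere. In every mouse labelled Fn14ko the *Tnfrsf12a* probe read well above background, at 2.91 to 5.08 times the channel median, and this label could not be checked further. *Fas* was at 0.364 to 0.831 in MRL/lpr, 0.907 to 1.54 in mice labelled Fn14ko and 1.23 to 2.36 in MRL/+. Its probe was well above background in 1, 4 and 2 mice of these groups. The mice labelled Fn14ko, whose strain carries the same *Fas* mutation, lay wholly above MRL/lpr and overlapped MRL/+. The markers of the labelled tissue did not sit alike in the groups. *Prox1*, the transcription factor of dentate granule cells, was at 2.30 to 7.34 in MRL/lpr but 0.242 to 0.498 in mice labelled Fn14ko and 0.481 to 0.681 in MRL/+, where its probe was well above background in 2 of 4 mice each. Of 10 hippocampus markers, 4 passed as higher in MRL/lpr than in MRL/+ and 5 as higher than in mice labelled Fn14ko. Of 6 cortex layer markers, 3 and 4 passed as lower, with *Lamp5* at 5.43 to 8.75 in MRL/lpr, 43.5 to 90.2 in mice labelled Fn14ko and 28.6 to 109.9 in MRL/+. Summed levels of the lists were 41.4 to 173 (MRL/lpr), 152 to 185 (Fn14ko) and 39.2 to 142 (MRL/+) for the hippocampus and 10.8 to 28.4, 110.2 to 166 and 59.2 to 213 for the cortex. In both lists the lowest sums of MRL/lpr were those of the weak array and the lowest of MRL/+ those of its Cy5 mice. Levels were floored at 1% of the channel median, so no marker could be at 0. Some of these probes were well above background in only 2 of 4 mice of a group. Of 9 striatum markers, 5 passed as lower in MRL/lpr than in mice labelled Fn14ko, with summed levels of 18.4 to 68.0 against 175 to 673. The part of these regional differences in the results below was not tested, and in such bulk RNA fewer cells of a type and less RNA per cell cannot be told apart.

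The 10 genes were read by 11 probes of 60 bases, 1 for each gene and 2 for *Dusp1*. For 7 of them (*Fos*, *Fosb*, *Egr1*, *Npas4*, *Nr4a1*, *Arc* and *Dusp1*) a spot was valid in all 12 samples, and their levels are given relative to the channel median over such spots. *Junb*, *Egr2* and *Ier2* had no such spot and came from the unfiltered fit, where the reference is the median of all spots, so that the 2 scales are separate and levels of different genes are not compared. Differences were tested with limma on log2 levels, adjusted by Benjamini-Hochberg over all genes of the respective fit (8864 or 29608), and each gene also by exact permutation of the 8 mice of 2 groups (two-sided), whose smallest p is 0.0286. The mice of a group are separate animals, but 2 share each array, which neither of these tests takes into account.

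Between MRL/lpr and MRL/+, 3 of the 10 genes passed an adjusted p of 0.05, and all 3 were lower in MRL/lpr: *Fosb*, *Egr1* and *Arc*. In the same fit 9.17% of all genes passed, 5.71% as lower in MRL/lpr, and 0.993% passed in the unfiltered fit. Between MRL/lpr and mice labelled Fn14ko, *Egr2* was lower and *Dusp1* higher in MRL/lpr, against 3.98% of all genes (2.21% as higher) in the filtered fit of *Dusp1* and 12.8% (8.04% as lower) in the unfiltered fit of *Egr2*. Between mice labelled Fn14ko and MRL/+, none of the 10 passed, where 0.519% of genes passed in the filtered fit and 0% in the unfiltered fit. At an unadjusted p of 0.05 it was 4 of the 10 (*Fosb*, *Egr2*, *Dusp1* and *Ier2*), beside 15.3% of all genes in the filtered and 8.75% in the unfiltered fit. With the replicate number as a block, 0 of the 10 and 0 of all genes passed between these groups. With the weak array left out all 10 genes had valid spots, and *Fosb* (MRL/lpr lower than MRL/+), *Dusp1* (MRL/lpr higher than Fn14ko) and *Fosb*, *Dusp1* and *Ier2* (Fn14ko lower than MRL/+) passed, against 15.7%, 9.12% and 21.1% of 17936 genes. With array as a random block no gene of the 10 passed in any comparison, the smallest adjusted p being 0.261.

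**Figure D1:**
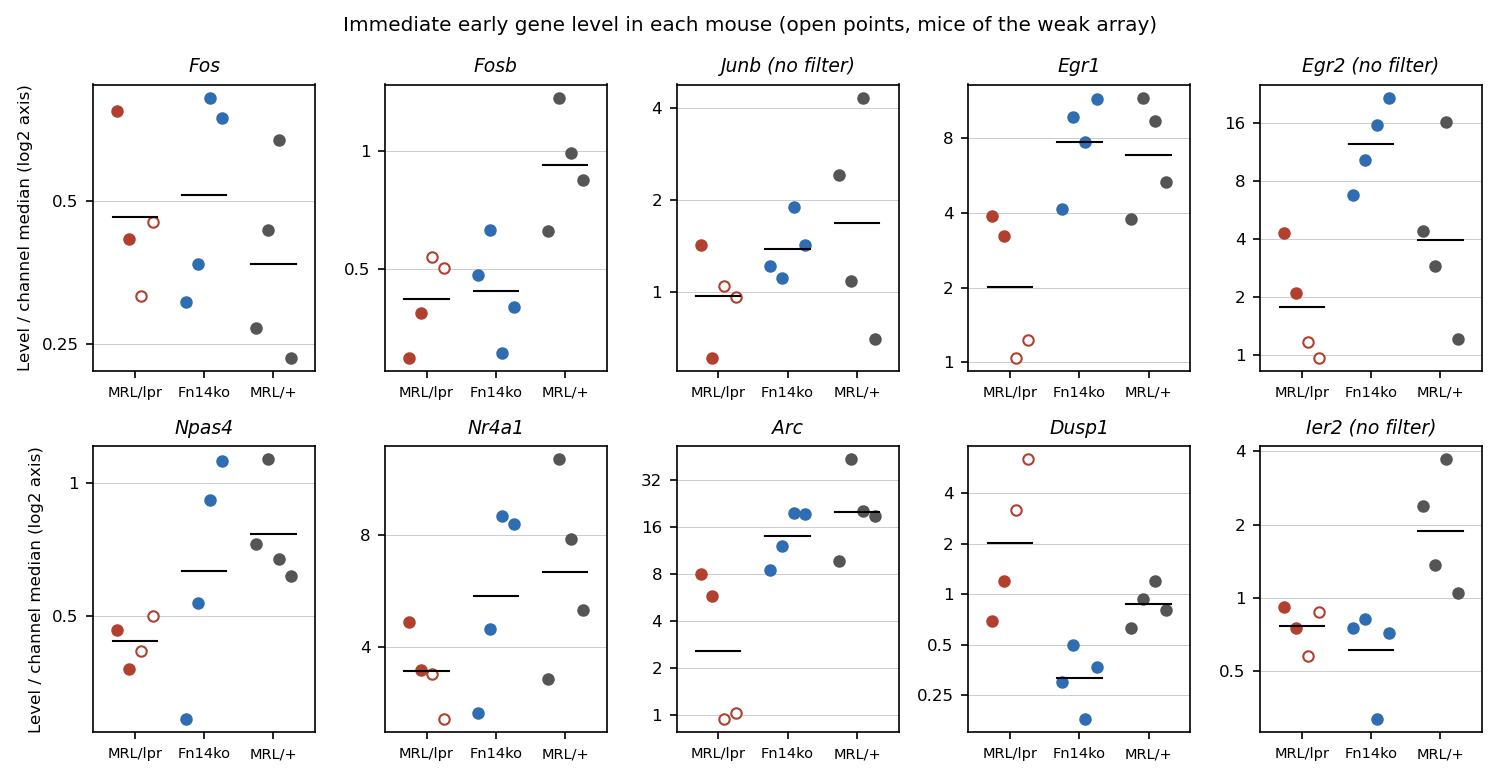
Level of each gene in each of the 12 mice, on log2 axes in multiples of the channel median, by phenotype. Points are mice 1 to 4 from left to right, lines the geometric means and open points the mice of the weak array. *Arc* was at 0.934 to 8.01 in MRL/lpr and 9.75 to 43.8 in MRL/+. *Dusp1* was at 0.180 to 0.497 in mice labelled Fn14ko, below every other mouse on this filtered scale.

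Among the AP-1 subunits, the leucine zipper proteins that bind DNA in Fos and Jun pairs, *Fosb* differed between phenotypes while its paralog *Fos* did not pass in any comparison. *Fos* (probe at chr12, 86817900 to 86817959 of mm9, printed on 10 spots of which 3 were valid throughout) was at 0.773, 0.416, 0.315 and 0.452 in MRL/lpr, 0.306, 0.367, 0.825 and 0.749 in mice labelled Fn14ko and 0.269, 0.434, 0.673 and 0.233 in MRL/+. The 3 groups overlapped over nearly their whole range. Its log2 difference was 0.33 ± 0.45 (SE) between MRL/lpr and MRL/+ (95% interval -0.65 to 1.31, adjusted p = 0.595), -0.15 ± 0.45 between MRL/lpr and Fn14ko (interval -1.13 to 0.83) and 0.48 ± 0.45 between Fn14ko and MRL/+ (interval -0.50 to 1.46). Leaving out the weak array gave 0.66, 0.020 and 0.64, none of which passed. The width of these intervals does not show that the groups were alike.

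*Fosb* (probe at chr7, 19888168 to 19888227), whose long-lived splice form accumulates with repeated activity, was at 0.297, 0.388, 0.537 and 0.504 in MRL/lpr, 0.485, 0.631, 0.306 and 0.401 in mice labelled Fn14ko and 0.627, 1.37, 0.989 and 0.843 in MRL/+. Every MRL/lpr mouse lay below every MRL/+ mouse, and the highest mouse labelled Fn14ko lay just above the lowest MRL/+ mouse. The gene was 2.19-fold lower in MRL/lpr than in MRL/+ (log2 -1.13 ± 0.30 SE, limma adjusted p = 0.0416, exact permutation p = 0.0286). The mice of each dye alone gave -0.98 and -1.28. The difference was -1.28 without the weak array (adjusted p = 0.0137). With 1 mouse left out, it passed without MRL/lpr 1, 2 or 3 and not without any of the other 9 mice (adjusted p up to 0.143). Mice labelled Fn14ko were 2.09-fold below MRL/+ (-1.06 ± 0.30, adjusted p = 0.124), and this difference passed without the weak array (-0.81, adjusted p = 0.0326). MRL/lpr and mice labelled Fn14ko differed by -0.07 (95% interval -0.73 to 0.59) in the filtered fit, and this value depended on the scale. Over the 27 alternatives it ranged from -1.52 to 0.090 and never passed (smallest limma adjusted p = 0.058). On the unfiltered scale the probe read 1.65 to 5.68 in MRL/lpr, 7.74 to 13.8 in mice labelled Fn14ko and 5.89 to 25.3 in MRL/+. There mice labelled Fn14ko and MRL/+ overlapped. Their log2 difference ranged from -1.21 to -0.15 over the 27 alternatives and passed in 3.

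*Junb* (probe at chr8, 87501881 to 87501940), a Jun partner that restrains AP-1 activity in many cells, was at 1.43, 0.609, 1.04 and 0.967 in MRL/lpr, 1.22, 1.11, 1.90 and 1.42 in mice labelled Fn14ko and 2.41, 1.09, 4.32 and 0.701 in MRL/+ on the unfiltered scale. The MRL/+ mice spread most, with the Cy3 mice above and the Cy5 mice below, and only the former had the probe well above background. None of its differences passed (adjusted p of 0.345 to 0.686). On the spots valid without the weak array, every mouse labelled Fn14ko (0.184, 0.202, 0.288 and 0.294) lay below every MRL/+ mouse (0.386, 0.544, 0.668 and 0.311), with a log2 difference of -0.95 ± 0.31 (SE, adjusted p = 0.0515).

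The promoters of *Fos*, *Fosb* and *Dusp1* are shown because the paralogs *Fos* and *Fosb* and the feedback gene *Dusp1* had different patterns over the groups. Each is the 250 bases before the RefSeq start of GRCm38.p6, on the strand of the gene, at chr12:85473640-85473889 (plus), chr7:19310046-19310295 (minus) and chr17:26508473-26508722 (minus), with the short CRE site TGACG or its reverse complement CGTCA in capitals.
Fos: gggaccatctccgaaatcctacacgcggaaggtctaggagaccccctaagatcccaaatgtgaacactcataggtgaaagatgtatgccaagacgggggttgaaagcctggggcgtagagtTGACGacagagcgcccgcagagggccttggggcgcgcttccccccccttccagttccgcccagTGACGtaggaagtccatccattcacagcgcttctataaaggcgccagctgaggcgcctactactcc
Fosb: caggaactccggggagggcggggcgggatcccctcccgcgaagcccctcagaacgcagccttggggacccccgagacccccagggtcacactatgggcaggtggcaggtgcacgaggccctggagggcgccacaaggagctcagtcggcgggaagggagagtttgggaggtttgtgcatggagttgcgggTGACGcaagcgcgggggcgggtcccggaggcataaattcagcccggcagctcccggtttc
Dusp1: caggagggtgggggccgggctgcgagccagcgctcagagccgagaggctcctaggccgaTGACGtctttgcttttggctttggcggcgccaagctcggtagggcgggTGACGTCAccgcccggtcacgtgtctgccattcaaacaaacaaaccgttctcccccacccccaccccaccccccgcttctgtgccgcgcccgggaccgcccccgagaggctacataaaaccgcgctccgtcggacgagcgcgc
RefSeq promoters were given for 7 of the 10 genes (*Fos*, *Fosb*, *Junb*, *Egr2*, *Npas4*, *Nr4a1* and *Dusp1*). All 7 held the short site on 1 strand or the other in such a window (for *Egr2*, in 3 of its 5 starts), as did 17.8% of 32851 promoters. The full palindrome TGACGTCA, which contains the short site on each strand, was in that of *Dusp1* alone (1.55% of all). It began 143 bases before the start. The CArG box was found for *Egr2* (1.47% of all), and the Egr site GCGGGGGCG or its reverse complement for *Fosb* and *Nr4a1* (2.57%). The AP-1 site TGANTCA was in none of the 7 windows (6.75% of all). A match describes letters, not binding.

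The zinc finger factors *Egr1* and *Egr2* had their lowest values in MRL/lpr, most of all in the mice of the weak array. *Egr1*, which is needed for late-phase plasticity and binds GC-rich sites, was at 3.90, 3.24, 1.04 and 1.23 in MRL/lpr, 4.16, 9.78, 7.75 and 11.6 in mice labelled Fn14ko and 3.80, 11.7, 9.38 and 5.32 in MRL/+. All MRL/lpr mice lay below all mice labelled Fn14ko, while MRL/lpr 1 lay just above MRL/+ 1. It was 3.42-fold lower in MRL/lpr than in MRL/+ (log2 -1.77 ± 0.50 SE, limma adjusted p = 0.0488, exact permutation p = 0.0571) and 3.87-fold lower than in mice labelled Fn14ko (-1.95 ± 0.50, adjusted p = 0.0525, exact permutation p = 0.0286). Without the weak array the log2 differences were -0.79 (adjusted p = 0.229) and -1.22 (adjusted p = 0.116). The first call held without MRL/lpr 1 or 2 and was lost without any of the other 10 mice (adjusted p up to 0.153).

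*Egr2* (probe at chr10, 67004798 to 67004857), a relative of *Egr1* induced by strong activity, was at 4.27, 2.10, 1.17 and 0.967 in MRL/lpr, 6.76, 10.2, 15.6 and 21.6 in mice labelled Fn14ko and 4.41, 2.88, 16.1 and 1.21 in MRL/+ on the unfiltered scale. The mice labelled Fn14ko lay above all MRL/lpr mice, and MRL/+ spanned both groups. The spot stood well above background in 2 MRL/lpr, 4 Fn14ko and 3 MRL/+ mice. The level was 6.92-fold lower in MRL/lpr than in mice labelled Fn14ko (log2 -2.79 ± 0.69 SE, limma adjusted p = 0.0275, exact permutation p = 0.0286), in a fit where 26.3% of all genes lay wholly lower in MRL/lpr. Without the weak array it was 2.89-fold lower (-1.53 ± 0.65, adjusted p = 0.187), with 0.998 and 0.538 in MRL/lpr 1 and 2 against 1.02, 1.85, 2.36 and 4.48. The call was lost without MRL/lpr 3 or 4 or Fn14ko 2, 3 or 4 (adjusted p up to 0.103). Against MRL/+ the difference of MRL/lpr was -1.15 ± 0.69 (adjusted p = 0.411), and its direction turned, to 1.02, when the negative control spots were taken as background.

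In the filtered fit *Npas4* and *Nr4a1* gave smaller differences, none past the adjusted threshold. *Npas4* (probe at chr19, 4984356 to 4984415), a neuronal factor induced by calcium that shapes inhibitory synapses, was at 0.466, 0.380, 0.416 and 0.501 in MRL/lpr, 0.292, 0.536, 0.913 and 1.12 in mice labelled Fn14ko and 0.729, 1.13, 0.673 and 0.617 in MRL/+. The MRL/lpr mice lay within 0.380 to 0.501 and all below MRL/+, whereas the mice labelled Fn14ko spanned both groups. On the unfiltered scale MRL/lpr was at 1.64 to 7.51 and MRL/+ at 4.30 to 17.5, so MRL/lpr and MRL/+ overlapped there. Only 2 MRL/lpr mice had the spot well above background. The log2 difference between MRL/lpr and MRL/+ was -0.80 ± 0.38 (SE, adjusted p = 0.145, exact permutation p = 0.0286), and -0.70 without the weak array (adjusted p = 0.298). Between MRL/lpr and mice labelled Fn14ko it ranged from -1.98 to -0.27 over the 27 alternatives. It passed there in 2, with no filter and with the filter on spots well above background.

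*Nr4a1* (probe at chr15, 101105071 to 101105130), the orphan nuclear receptor Nur77, was at 4.66, 3.46, 3.38 and 2.55 in MRL/lpr, 2.64, 4.46, 8.99 and 8.59 in mice labelled Fn14ko and 3.28, 12.8, 7.79 and 5.02 in MRL/+. The MRL/lpr mice reached at most 4.66, while both other groups held mice on either side of that value. Its log2 difference from MRL/+ was -0.89 ± 0.48 (SE, adjusted p = 0.189) and from Fn14ko -0.68 ± 0.48 (adjusted p = 0.279). These were -0.50 and -0.54 without the weak array (adjusted p = 0.533 and 0.629).

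*Arc* (probe at chr15, 74499592 to 74499651), the effector whose mRNA travels to active synapses and whose protein drives AMPA receptor endocytosis, showed the largest difference of the 10 between MRL/lpr and MRL/+. It was at 8.01, 5.77, 0.934 and 1.03 in MRL/lpr, 8.43, 12.11, 19.7 and 19.3 in mice labelled Fn14ko and 9.75, 43.8, 20.3 and 18.9 in MRL/+. All MRL/lpr mice lay below all mice of the other groups, by a narrow margin for MRL/lpr 1 and most widely for the mice of the weak array. The level was 7.80-fold lower than in MRL/+ (log2 -2.96 ± 0.71 SE, limma adjusted p = 0.0301, exact permutation p = 0.0286) and 5.43-fold lower than in mice labelled Fn14ko (-2.44 ± 0.71, adjusted p = 0.0690, exact permutation p = 0.0286). Without the weak array the fold was 2.65 against MRL/+ (-1.40 ± 0.44, adjusted p = 0.0555) and 2.19 against Fn14ko (-1.13 ± 0.44, adjusted p = 0.149). The call against MRL/+ held without MRL/lpr 1 or 2 or Fn14ko 1 or 3 and was lost without any of the other 8 mice (adjusted p up to 0.111). Mice labelled Fn14ko and MRL/+ differed by -0.52 (95% interval -2.07 to 1.03).

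*Dusp1*, the phosphatase that inactivates MAP kinases and so ends their signal, was higher in MRL/lpr than in mice labelled Fn14ko, where *Arc* and the Egr genes had lower values. Its valid probe, which the files place on chr17 at 26642526 to 26642536, was at 0.692, 1.21, 3.17 and 6.40 in MRL/lpr, 0.302, 0.497, 0.180 and 0.371 in mice labelled Fn14ko and 0.635, 0.941, 1.20 and 0.810 in MRL/+. On this filtered scale the mice labelled Fn14ko lay below all other mice, and the highest values were those of the weak array. On the unfiltered scale the same probe was at 11.2 to 21.5 in MRL/lpr, 4.84 to 10.9 in mice labelled Fn14ko and 5.12 to 30.6 in MRL/+. There mice labelled Fn14ko and MRL/+ overlapped, and MRL/+ 3 was highest. *Dusp1* was 6.41-fold higher in MRL/lpr than in mice labelled Fn14ko (log2 2.68 ± 0.56 SE, limma adjusted p = 0.0274, exact permutation p = 0.0286), with 2.67 and 2.69 in the mice of each dye alone. It was 2.72-fold higher without the weak array and still passed (1.44 ± 0.38, adjusted p = 0.0394). With 1 mouse left out the call held without MRL/lpr 1 or 2 or MRL/+ 1, 2 or 3 and was lost without any of the other 7 (adjusted p up to 0.108).

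Against MRL/+, *Dusp1* in mice labelled Fn14ko was 2.76-fold lower (-1.46 ± 0.56, adjusted p = 0.225, exact permutation p = 0.0286) and passed without the weak array (-1.21 ± 0.31, adjusted p = 0.0227). MRL/lpr and MRL/+ overlapped, with a log2 difference of 1.22 (95% interval -0.01 to 2.44) that came to 0.23 without the weak array. The other probe named *Dusp1*, at 26691199 to 26691258, was valid in no fit, so the values rest on 1 probe.

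*Ier2* (probe at chr8, 87186214 to 87186273), a small nuclear protein induced by growth factors, was at 0.911, 0.747, 0.572 and 0.871 in MRL/lpr, 0.749, 0.819, 0.315 and 0.712 in mice labelled Fn14ko and 2.39, 1.36, 3.72 and 1.05 in MRL/+ on the unfiltered scale. Every MRL/+ mouse lay above every mouse of the other groups, although only 2 MRL/lpr, 3 Fn14ko and 2 MRL/+ mice had the probe well above background. In this fit *Ier2* was 3.10-fold lower in mice labelled Fn14ko than in MRL/+ (log2 -1.63 ± 0.45 SE, limma adjusted p = 0.562, exact permutation p = 0.0286) and 2.47-fold lower in MRL/lpr (-1.31 ± 0.45, adjusted p = 0.173, exact permutation p = 0.0286). Without the weak array, on valid spots, the level was 0.113, 0.149, 0.0478 and 0.148 in mice labelled Fn14ko against 0.382, 0.682, 0.575 and 0.466 in MRL/+, a 4.92-fold difference (-2.30 ± 0.34, adjusted p = 0.00254). Over the 27 alternatives the log2 difference of mice labelled Fn14ko from MRL/+ ranged from -2.40 to -0.14 and passed in 3. The difference of MRL/lpr from MRL/+ turned, to 0.04 and 0.76, with the Agilent processed signal and with the negative control background.

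**Figure D2:**
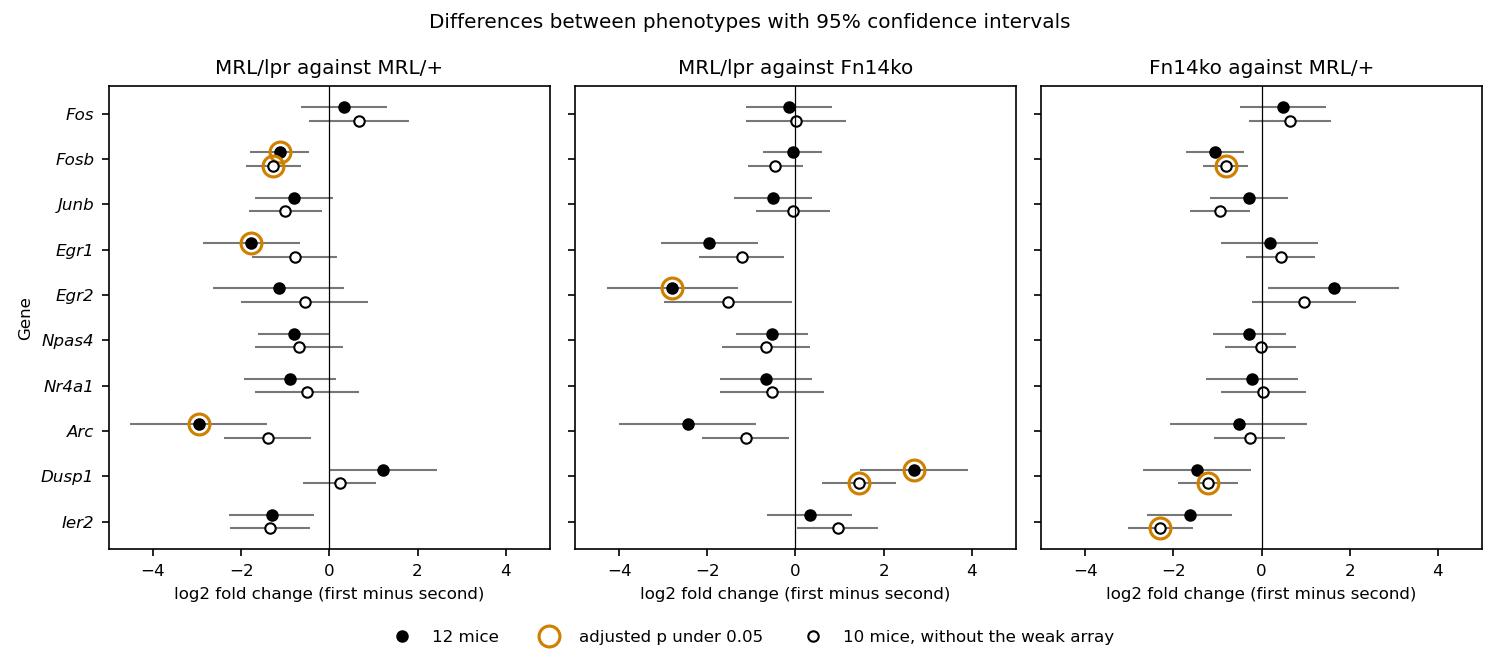
Log2 fold change (first group minus second) of each gene in the 3 comparisons, with 95% confidence intervals of the limma fit. Filled points are from all 12 mice, open points from the 10 without the weak array, and rings mark an adjusted p under 0.05. The *Arc* difference between MRL/lpr and MRL/+ went from -2.96 to -1.40 without the weak array and that of *Fosb* from -1.13 to -1.28.

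Over the 10 genes, 4 had MRL/lpr wholly below MRL/+ (*Fosb*, *Npas4*, *Arc* and *Ier2*) and none wholly above, in fits where 11.6% (filtered) and 3.33% (unfiltered) of all genes lay wholly lower. For *Npas4* this was on the filtered scale, and on the unfiltered scale its groups overlapped. Against mice labelled Fn14ko, *Egr1*, *Egr2* and *Arc* were wholly lower in MRL/lpr and *Dusp1* wholly higher, beside 10.3% (filtered) and 26.3% (unfiltered) of all genes lower and 11.2% (filtered) higher. Between mice labelled Fn14ko and MRL/+, *Dusp1* and *Ier2* were wholly lower in the former, beside 14.1% (filtered) and 1.95% (unfiltered) of all genes. The median log2 difference of the 10 was -1.01, -0.52 and -0.28 in the 3 comparisons, against -0.01, 0.03 and -0.16 over all genes of the filtered fit, and -0.74, -0.50 and -0.15 without the weak array. These medians join values of 2 fits, and with all 10 genes taken from the unfiltered fit they were -1.32, -1.75 and 0.52, against -0.25, -0.08 and -0.02 over all genes, so that the sign between mice labelled Fn14ko and MRL/+ turned. The comparisons share samples, so their values are not independent of each other.

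Within a phenotype, the mice of the 2 arrays could differ as much as the phenotypes. In mice labelled Fn14ko, mice 3 and 4 lay both above mice 1 and 2 for *Fos*, *Junb*, *Egr2*, *Npas4*, *Nr4a1* and *Arc*, and both below them for *Fosb* and *Ier2*. The mean log2 difference between these arrays was 1.36 for *Nr4a1*, 1.35 for *Npas4*, 1.23 for *Fos* and -0.66 for *Fosb*. Of all 8864 genes of the filtered fit, 36.6% separated these arrays in either direction (1996 with mice 3 and 4 above, 1252 below). *Junb*, *Egr2* and *Ier2* came from the unfiltered fit, which this share does not cover. In MRL/lpr, the weak array lay wholly below the other for *Egr1* (-1.65), *Egr2* (-1.49), *Nr4a1* (-0.45) and *Arc* (-2.79) and wholly above for *Fosb* (0.62) and *Dusp1* (2.30), where 82.8% of all genes separated. In MRL/+ only *Npas4* separated (-0.50), beside 10.5% of all genes. These separations depend on the scale, which for *Fosb* and *Dusp1* was that of the filtered fit. On the unfiltered scale *Fosb* was at 3.64 and 1.65 in MRL/lpr 3 and 4, below the 4.78 and 5.68 of mice 1 and 2. The valid *Dusp1* probe was there at 21.5 and 21.0 against 11.2 and 17.7, a smaller difference. Differences between mice and between arrays cannot be told apart here.

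**Figure D3:**
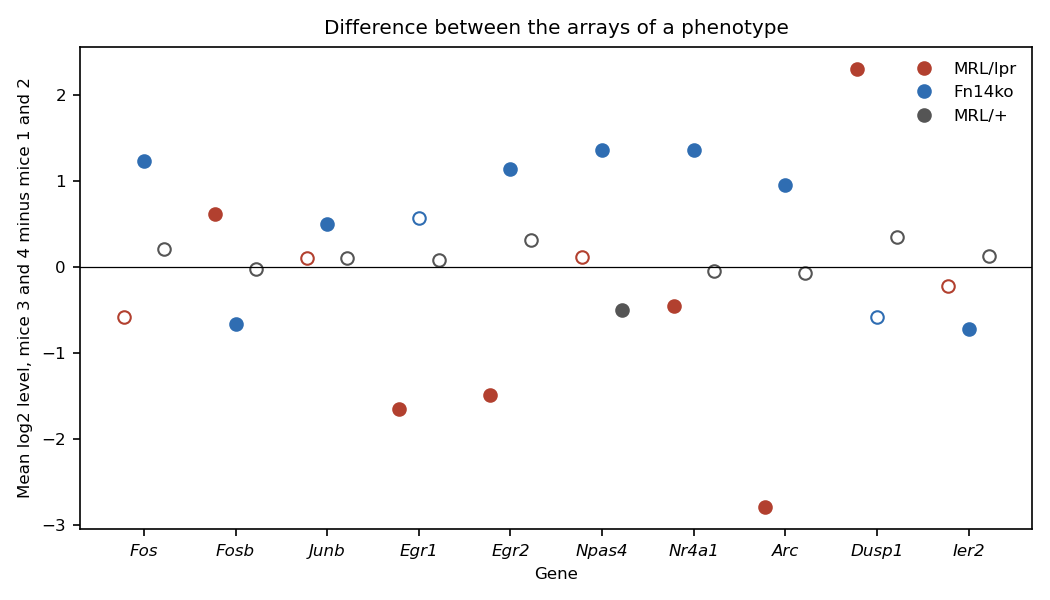
Mean log2 level of mice 3 and 4 minus that of mice 1 and 2, by gene and phenotype. Filled points mark genes for which the mice of one array lay wholly above those of the other, open points those that overlapped. In mice labelled Fn14ko 6 genes were higher and 2 lower on the second array. In MRL/lpr *Arc* was at -2.79 and *Dusp1* at 2.30, both on the filtered scale.

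Among 28 other rapid immediate early genes, *Fosl2*, an AP-1 subunit, passed as higher and *Arl4d* as lower in MRL/lpr than in MRL/+ (log2 1.69 ± 0.38 and -1.48 ± 0.38, adjusted p = 0.0260 and 0.0372). *Fosl2* was at 0.504 to 1.45 in MRL/lpr and 0.142 to 0.428 in MRL/+, where its probes were well above background in 2 of the 4 mice. Against mice labelled Fn14ko, 6 of the 28 passed as lower in MRL/lpr and none as higher. The 3 largest were *Trib1*, a pseudokinase (-2.62 ± 0.51, adjusted p = 0.0103), *Csrnp1* (-2.54 ± 0.73, adjusted p = 0.0430) and *Klf10*, a zinc finger factor (-2.17 ± 0.65, adjusted p = 0.0469), all from the unfiltered fit and well above background in 2 MRL/lpr mice. None of the 28 passed between mice labelled Fn14ko and MRL/+. With the weak array left out, 3 passed as higher and 4 as lower in MRL/lpr than in MRL/+, 3 as lower than in mice labelled Fn14ko, and 2 as higher and 1 as lower between mice labelled Fn14ko and MRL/+. Beside these counts, and those of the lists below, 15.7%, 9.12% and 21.1% of all genes with valid spots passed in the 3 comparisons. *Fosl2* (1.30, adjusted p = 0.0454) and *Trib1* (-1.27, adjusted p = 0.00377) then passed, and *Arl4d* (-1.15, adjusted p = 0.117), *Csrnp1* (-0.56, adjusted p = 0.254) and *Klf10* (-0.67, adjusted p = 0.348) did not. The median of the list was -0.41, -0.69 and 0.46 in the 3 comparisons, and without the weak array 0.14, -0.34 and 0.13. *Jun* (-0.38, adjusted p = 0.434), *Nr4a2* (0.32, adjusted p = 0.370) and *Btg2* (0.30, adjusted p = 0.660) did not pass between MRL/lpr and MRL/+, but *Nr4a2* passed without the weak array (0.73, adjusted p = 0.0467). *Egr3* was not well above background in any MRL/lpr mouse and in 2 of 4 MRL/+ mice. With MRL/lpr levels raised to at least the lowest level of a spot well above background, *Egr3* was 1.86-fold below the measured MRL/+ levels. As 2 of the 4 MRL/+ mice were also dim, this is not a strict lower limit. Its measured difference did not pass (adjusted p = 0.298) but passed without the weak array (adjusted p = 0.000174), in the unfiltered fit.

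Of 15 delayed effectors, which are induced after the transcription factors, 3 passed as lower in MRL/lpr in each comparison with it and none as higher or between the other groups. They were *Nptx2*, a secreted pentraxin that clusters AMPA receptors (-3.45 ± 0.60, adjusted p = 0.0201), *Vgf*, a neuropeptide precursor (-1.95 ± 0.53, adjusted p = 0.0438) and *Rgs2*, a regulator of G proteins (-0.94 ± 0.24, adjusted p = 0.0388) against MRL/+. Against mice labelled Fn14ko they were *Nptx2* (-3.58 ± 0.60, adjusted p = 0.00617), *Inhba*, the activin subunit (-2.56 ± 0.75, adjusted p = 0.0453) and *Sorcs3*, a sorting receptor (-1.79 ± 0.45, adjusted p = 0.0295). *Nptx2* was at 0.643 to 3.18 in MRL/lpr, 14.8 to 23.2 in mice labelled Fn14ko and 10.03 to 28.2 in MRL/+ on the unfiltered scale. *Nptx2*, *Inhba* and *Sorcs3*, all from that fit, were well above background in only 2 of 4 MRL/lpr mice, so the sizes of their differences rest in part on dim spots. On the other 10 samples 4 of the 15 passed as lower in MRL/lpr than in MRL/+ and 2 as lower than in mice labelled Fn14ko, and 1 passed as higher and 1 as lower between the other groups. *Nptx2* passed in both (-2.53 and -2.002, adjusted p = 2.9e-05 and 0.00019) and *Rgs2* against MRL/+ (-0.54, adjusted p = 0.0494), while *Vgf* (-0.67, adjusted p = 0.0597), *Inhba* (-0.48, adjusted p = 0.121) and *Sorcs3* (-0.62, adjusted p = 0.0531) did not. *Bdnf*, the neurotrophin (-1.15, adjusted p = 0.375), and *Homer1*, a postsynaptic scaffold (-0.97, adjusted p = 0.100), did not pass against MRL/+, but *Homer1* passed without the weak array (-1.02, adjusted p = 0.00609). With the negative control spots as background the differences of *Nptx2* and *Bdnf* from MRL/+ turned, to 1.91 and 1.71, and that of *Homer1* turned to 0.25 with the Agilent processed signal. The list median was -0.94, -0.83 and 0.25, and without the weak array -0.43, -0.48 and -0.01.

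Among 30 upstream receptors, kinases and factors, 3 passed as lower in MRL/lpr in each of its comparisons, and none as higher or between the other groups. *Camkk2*, the calcium-dependent kinase kinase, was lower than in MRL/+ (-2.71 ± 0.48, adjusted p = 0.0102) and than in mice labelled Fn14ko (-2.04 ± 0.48, adjusted p = 0.0422). *Mef2c*, a factor of cortical and hippocampal neurons, was lower in both as well (-3.23 ± 0.56 and -3.16 ± 0.56, adjusted p = 0.0201 and 0.00744). *Grin1*, the obligatory NMDA receptor subunit, passed against MRL/+ (-2.03 ± 0.45, adjusted p = 0.0236) and *Camk4*, which phosphorylates CREB in the nucleus, against Fn14ko (-3.33 ± 0.64, adjusted p = 0.0101). *Mef2c* and *Camk4*, from the unfiltered fit, were well above background in 2 of 4 MRL/lpr mice. The counts without the weak array were 3 higher and 6 lower (MRL/lpr against MRL/+), 1 higher and 3 lower (against Fn14ko) and 4 higher and 5 lower (Fn14ko against MRL/+). *Camkk2* (-1.58 and -1.11, adjusted p = 0.000637 and 0.00689), *Mef2c* (-2.62 and -1.88, adjusted p = 0.000178 and 0.0019), *Grin1* (-1.12, adjusted p = 0.0308) and *Camk4* (-1.58, adjusted p = 0.00196) passed there too. *Creb1* (0.30, adjusted p = 0.718) and *Srf* (-1.06, adjusted p = 0.0670) did not pass against MRL/+. The difference of *Mef2c* from MRL/+ turned, to 2.20, with the negative control background. The list median was -0.51, -0.51 and -0.11, and without the weak array -0.12, -0.08 and -0.04. Of 7 heat shock genes measured, *Hspa1a* passed as higher in MRL/lpr than in MRL/+ and none in the other comparisons. When the weak array was left out 2 passed as higher than in MRL/+ and 1 as higher than in mice labelled Fn14ko, and the list medians turned from -0.42 and -0.39 to 0.48 and 0.29.

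In fits that each left out 1 of the 12 mice, *Trib1*, *Nptx2*, *Camk4* and *Mef2c* against mice labelled Fn14ko and *Camkk2* against MRL/+ passed every time. *Nptx2* and *Mef2c* against MRL/+ were lost without MRL/+ 1, 3 or 4. *Fosl2* was lost without MRL/lpr 3 or 4 or MRL/+ 1, 2 or 4, and *Grin1* without MRL/lpr 3 or MRL/+ 1, 2 or 4. *Sorcs3* was lost without MRL/lpr 3 or 4 or any mouse labelled Fn14ko. *Arl4d* held only without MRL/lpr 1 or 2 or Fn14ko 2 or 3. *Vgf* and *Rgs2* against MRL/+ and *Klf10*, *Csrnp1*, *Inhba* and *Camkk2* against Fn14ko held only without MRL/lpr 1 or 2.

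**Figure D4:**
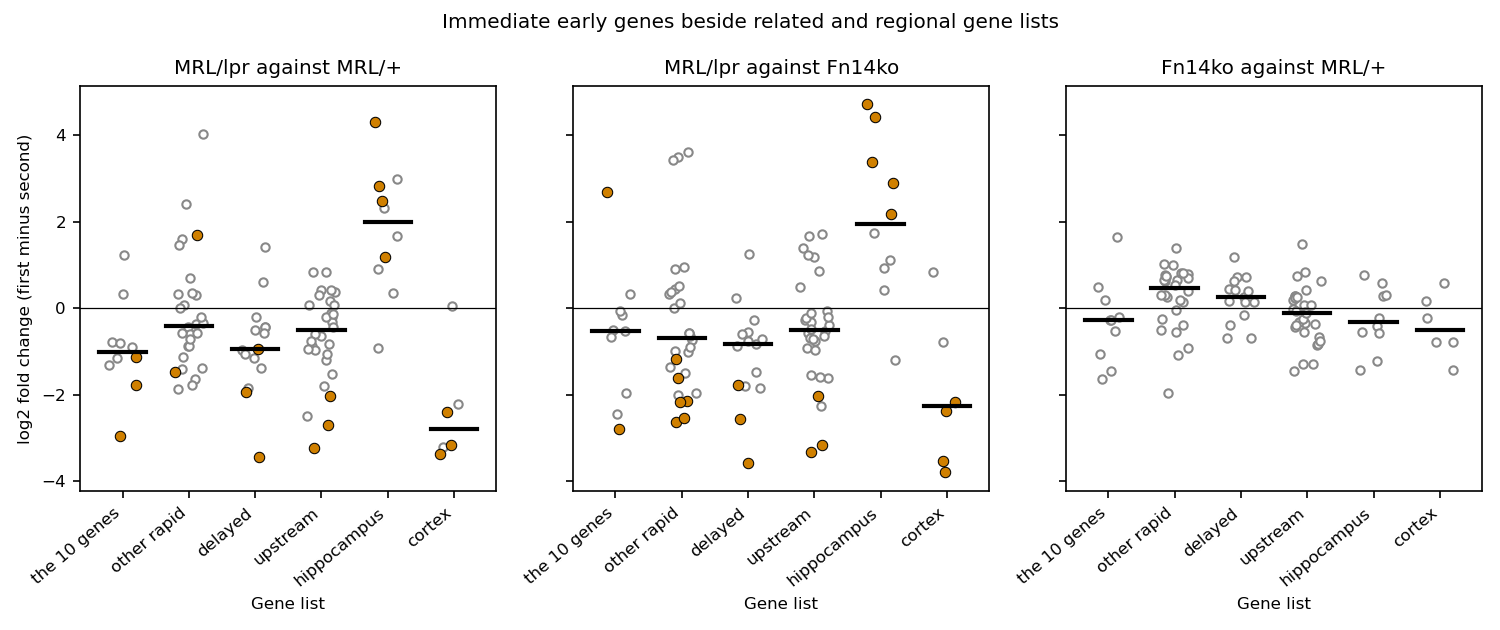
Log2 fold change (first group minus second) of the 10 genes, of 3 lists of related genes and of hippocampus and cortex layer markers, in the 3 comparisons. Points are genes, filled where the adjusted p is under 0.05, and bars are medians. Between MRL/lpr and MRL/+ the medians were -1.01 for the 10 genes, -0.41 for the other rapid genes, 1.99 for the hippocampus markers and -2.79 for the cortex layer markers.

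The cortex layer markers had medians of -2.79 and -2.27 in the comparisons of MRL/lpr with MRL/+ and with mice labelled Fn14ko, and the hippocampus markers 1.99 and 1.95, and both kept these directions without the weak array (-2.51 and -1.71 for the cortex, 1.46 and 2.16 for the hippocampus). Between mice labelled Fn14ko and MRL/+ they were -0.51 and -0.32, and none of these markers passed there. The lower *Arc*, *Egr1*, *Egr2* and *Fosb* of MRL/lpr came with lower cortex and higher hippocampus markers. Of 8 neuron markers 7 had negative differences in both comparisons (medians -0.91 and -0.99, 1 and 0 called), with summed levels of 83.8 to 962 in MRL/lpr, 1263 to 1704 in mice labelled Fn14ko and 345 to 1800 in MRL/+. All 7 microglia markers had negative differences against MRL/+ (median -1.02, 2 called) and 6 of 7 against Fn14ko (median -0.55, 1 called), with summed levels of 22.7 to 177, 155.5 to 257 and 82.1 to 247. All 7 choroid plexus markers had positive differences in both (medians 1.98 and 1.55, 1 called in each), with summed levels of 63.5 to 621, 11.4 to 145 and 12.6 to 29.5. In each of these lists the lowest sums of MRL/lpr were those of the weak array. The lowest of MRL/+ were those of its Cy5 mice. The neuron markers summed to 824 and 962 in MRL/lpr 1 and 2 and to 1800 and 1701 in MRL/+ 1 and 3. Without the weak array the neuron medians were -0.09 and -0.35 and the microglia medians -0.41 and -0.30, while 5 of 7 choroid plexus markers passed as higher in each comparison and 4 and 5 of 5 erythrocyte markers. Their part in the result was not tested. The differences of *Fosb*, *Dusp1* and *Ier2* between mice labelled Fn14ko and MRL/+, which passed without the weak array, came with 2 of 6 cortex layer markers lower, 2 of 10 hippocampus markers higher and 2 lower and 5 of 9 striatum markers higher in the same fit. Of all genes with valid spots, 21.1% passed there in either direction.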

How the data were processed

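RNA from 12 mice was measured on 6 two-colour Agilent 4x44K arrays of 60-base probes, 2 mice of a phenotype per array, with no common reference. The authors deposited the scanner intensity of each spot and its local background, per the file headers from Agilent Feature Extraction 12.1, with probe positions on mm9 and no normalization between arrays. From these intensity values the background was subtracted in each channel. Spots flagged as outliers or with a foreground under 2 times the background were removed, values were divided by the channel median, spots of a gene were averaged, and log2 was taken. The 10877 spots valid in all 12 samples (8864 genes) gave the results, fitted with limma 3.58.1 (R 4.3.3) with group and dye as terms, a mean trend and Benjamini-Hochberg adjustment. Genes without such a spot came from a fit of all spots (29608 genes) with values floored at 1% of the channel median. With array as a random block the consensus correlation between mice sharing an array was 0.71. The number of arrays limits the precision. The p-values of the main fit and of the permutation measure the spread between mice taken as separate, not the spread between arrays.

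The 10 genes, the lists of related genes and the tests were chosen with earlier results of these data known. All 10 genes were named, and from the 3 lists of related genes up to 3 per comparison and direction by size past the threshold, and *Jun*, *Egr3*, *Nr4a2*, *Btg2*, *Bdnf*, *Homer1*, *Creb1* and *Srf* whatever their values. Marker genes *Prox1* and *Lamp5* and the heat shock gene *Hspa1a* were singled out after their values were seen. Same-numbered mice of Fn14ko and MRL/+ deviated together from their group means (correlations over genes of 0.20 to 0.50), a pairing seen in the data and not stated by the labels, and odd and even numbers also mark the dye. The fit was tested on simulated data with known changes. Promoters came from RefSeq (GRCm38.p6). The labels name the tissue as hippocampus, while 1 label field speaks of cortex. Alternatives covered background, filter, scaling, dye, array, array weights, single mice and the methods' t-test.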

Additional observations from a re-analysis of the deposited data

How the results depend on the processing

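Direction was kept in all 27 alternatives by *Fosb*, *Junb*, *Egr1*, *Npas4*, *Nr4a1* and *Arc* between MRL/lpr and MRL/+, by *Egr1*, *Egr2*, *Npas4*, *Nr4a1*, *Arc* and *Dusp1* between MRL/lpr and Fn14ko, and by *Fos*, *Fosb*, *Egr2*, *Dusp1* and *Ier2* between Fn14ko and MRL/+. The calls did not hold as widely, and the cause was not tested. Of the 10 genes, 3 passed between MRL/lpr and MRL/+, but 1 with normexp and quantile scaling, with the 75th percentile, with the replicate block or without the weak array, and 0 with no filter, with array as a block or by the methods' t-test with its fold limit (0 to 4 with 1 mouse left out). Between MRL/lpr and Fn14ko 2 passed, but 4 with the Agilent processed signal, with no filter, with the filter on spots well above background or with array weights, 1 with the 75th percentile, the negative control background or without the weak array, and 0 with normexp, with quantile scaling or with array as a block (0 to 4 with 1 mouse left out). Between Fn14ko and MRL/+ 0 passed, but 5 with array weights, 3 without the weak array, 4 without it and with array as a block, and 1 (*Dusp1*) by the methods' t-test (0 with any 1 mouse left out). The negative control background, and array as a block without the weak array, were chosen after seeing the data, and the array weights did not converge fully. In that block fit the consensus correlation within arrays was -0.26. A negative value narrows the error of a group difference, so its larger counts do not come from a stricter test.

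Over all genes, 813 passed between MRL/lpr and MRL/+, but 294 with no filter, 504 with the filter on spots well above background, 449 with quantile scaling, 7 with array as a block, 506 with the replicate block, 1450 with array weights, 2818 without the weak array, 5135 without it and with array as a block, 2394 with the negative control background and 424 by the methods' t-test (126 to 3467 with 1 mouse left out). Between MRL/lpr and Fn14ko 353 passed, but, in the same order, 3787, 207, 146, 4, 179, 903, 1636, 2847 and 198, and 647 with the Agilent processed signal (40 to 4304 with 1 mouse left out). Between Fn14ko and MRL/+ 46 passed, but 0 with normexp, no filter, quantile scaling, array as a block or the replicate block, 90 with the filter on spots well above background, 19 without the dye term, 3407 with array weights, 3785 without the weak array, 6412 without it and with array as a block, 14 with the negative control background and 527 by the methods' t-test (0 to 126 with 1 mouse left out). The replicate block changed no call between Fn14ko and MRL/+ among the 10 genes. MRL/lpr was not paired with either group by number (correlations of -0.40 to 0.44).

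Log2 differences that turned were, between MRL/lpr and MRL/+, *Ier2* 0.040 and *Homer1* 0.25 with the Agilent signal, *Dusp1* -0.032, *Jun* 0.10 and *Creb1* -0.33 with array weights, *Mef2c* 2.20, *Nptx2* 1.91, *Ier2* 0.76, *Egr2* 1.02 and *Bdnf* 1.71 with the negative control background, *Nr4a2* -0.17 with no filter, *Creb1* -0.22 and *Btg2* -0.24 with no filter or the filter on spots well above background, *Creb1* -0.71 and *Fos* -0.62 with quantile scaling, and *Jun* 0.22 and *Creb1* -0.64 without the weak array, with or without array as a block. Between MRL/lpr and Fn14ko they were *Junb* 0.71, *Fosb* 0.090 and *Fos* 0.0079 with the 75th percentile, *Ier2* -0.78 with array weights, *Fos* 0.20 and *Ier2* -0.15 with normexp, *Ier2* -0.32 with quantile scaling and *Fos* 0.020 without the weak array. Between Fn14ko and MRL/+ they were *Junb* 0.89 with array weights, *Arc* 0.40 and *Nr4a1* 0.70 with no filter, *Npas4* 0.64 with no filter or the filter on spots well above background, *Junb* 0.046 with quantile scaling and *Nr4a1* 0.037 without the weak array. With 1 mouse left out, *Creb1* ranged from -0.11 to 0.77 between MRL/lpr and MRL/+, *Fos* from -0.46 to 0.091, *Fosb* from -0.26 to 0.066 and *Ier2* from -0.063 to 0.52 between MRL/lpr and Fn14ko, and *Junb* from -0.58 to 0.053, *Egr1* from -0.060 to 0.44, *Npas4* from -0.53 to 0.091 and *Nr4a1* from -0.54 to 0.15 between Fn14ko and MRL/+. The probes of *Junb* and *Ier2* were well above background in 2 of 4 MRL/lpr and 2 of 4 MRL/+ mice, which limits their values.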
